A study of Homo sapiens with 23 samples.

Results

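The 29 genes described here encode subunits of voltage-gated sodium and calcium channels, and they were chosen by symbol from the 57477 genes of the count table. They comprise 8 genes for sodium channel pore (alpha) subunits, 3 for sodium channel beta subunits, 10 CACNA1 genes for calcium channel pore subunits, 4 CACNB genes for calcium channel beta subunits and 4 CACNA2D genes for alpha-2-delta subunits. Other sodium channel genes were not analysed here, so no share of the sodium channel family as a whole is given, whereas the 3 calcium channel families hold every gene of their series. Total RNA, depleted of ribosomal RNA, was sequenced while H1-hESC, an established human embryonic stem cell line of wild-type genotype, was taken towards heart muscle. The 23 libraries fall into 8 days: day 0 (stem cells), day 1 (mesendoderm), day 3 (cardiac mesoderm), days 5 and 7 (cardiac progenitors) and days 10, 14 and 28 (cardiomyocytes), with 2 libraries on day 10 and 3 on every other day. The stem cells were kept in mTesR1 medium and the derived cardiomyocytes in RPMI with insulin; all groups come from a single line, and no undifferentiated cultures of the later days enter the comparisons, so day of differentiation, time in culture and medium cannot be told apart.

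In a voltage-gated channel the pore subunit opens when the membrane depolarises. Sodium channels carry the fast upstroke of the action potential in nerve and muscle, and their beta subunits, which are single-pass membrane proteins, alter gating and surface level. In heart muscle the L-type calcium current sets the plateau of the action potential and starts contraction; its pore is assembled with an intracellular beta subunit and an extracellular alpha-2-delta subunit, both of which help to bring the pore to the membrane. T-type calcium channels open at more negative voltages and are prominent in embryonic heart and in pacemaker tissue, while the P/Q-, N- and R-type channels are best known from nerve terminals.

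Library totals ranged from 4330334 to 22089595 counts, and the 2 shallowest libraries were day 5 replicate 3 and day 7 replicate 1. Within a day, libraries correlated at 0.968 to 0.993 over all genes tested, except on day 5, where the range was 0.907 to 0.956. The summed level of 7 cardiomyocyte markers (TNNT2 among them) was 17.7 to 18.5 CPM (read counts scaled by the normalised library size) on day 0, 1500 to 2926 CPM on day 5 and 28820 to 41770 CPM on day 28. The labels do not say whether the libraries of a day came from separate cultures, so p-values measure only the spread between libraries, which may be technical.

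CACNA1C and CACNA1D, the L-type pore genes of heart, and CACNB2, the main cardiac beta subunit gene, showed the largest called rises among the channel genes between day 28 and day 0, and the windows around their transcription starts are shown here for that reason. The sequences are RefSeq's, from assembly GRCh38.p14, each 300 bases long (250 before and 50 after the annotated start), on the + strand. Capitals mark exact matches, on either strand, to GGGCGG (the core of GC boxes), to a GATA hexamer (AGATAA or its variants with T at the start or G at the end), or to TNAAGTG (a core bound by NKX2-type homeodomain factors). CACNA1C, chr12:2052737-2053036:
CACNA1C: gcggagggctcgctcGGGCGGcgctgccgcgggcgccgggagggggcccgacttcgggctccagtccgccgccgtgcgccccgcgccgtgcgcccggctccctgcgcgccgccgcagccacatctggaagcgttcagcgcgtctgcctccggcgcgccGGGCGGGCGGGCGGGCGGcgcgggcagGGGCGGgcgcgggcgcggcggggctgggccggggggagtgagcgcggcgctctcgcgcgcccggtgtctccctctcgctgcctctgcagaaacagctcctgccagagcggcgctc
CACNA1D, chr3:53494361-53494660:
CACNA1D: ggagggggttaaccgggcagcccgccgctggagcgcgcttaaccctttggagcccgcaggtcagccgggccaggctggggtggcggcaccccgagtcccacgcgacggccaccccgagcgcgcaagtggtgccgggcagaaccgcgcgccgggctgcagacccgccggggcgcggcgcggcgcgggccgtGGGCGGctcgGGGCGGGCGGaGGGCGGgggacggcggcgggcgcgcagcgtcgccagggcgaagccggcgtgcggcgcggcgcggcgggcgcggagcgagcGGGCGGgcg
CACNB2 has 4 annotated starts, and the window chr10:18340459-18340758 holds a TNAAGTG match:
CACNB2 with TNAAGTG match: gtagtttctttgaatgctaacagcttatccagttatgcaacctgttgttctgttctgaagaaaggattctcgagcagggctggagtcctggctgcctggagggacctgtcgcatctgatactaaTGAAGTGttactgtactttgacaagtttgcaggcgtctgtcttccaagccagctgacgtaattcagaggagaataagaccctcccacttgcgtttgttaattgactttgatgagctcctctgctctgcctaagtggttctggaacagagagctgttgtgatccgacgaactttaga
The CACNB2 window chr10:18400325-18400624 holds a GATA hexamer:
CACNB2 with GATA match: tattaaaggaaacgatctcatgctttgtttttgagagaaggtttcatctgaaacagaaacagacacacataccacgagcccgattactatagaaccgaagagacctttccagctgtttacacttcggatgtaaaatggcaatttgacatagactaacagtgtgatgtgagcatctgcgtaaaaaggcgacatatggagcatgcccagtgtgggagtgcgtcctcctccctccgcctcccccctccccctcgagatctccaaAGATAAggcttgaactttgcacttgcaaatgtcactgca

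The CACNA1C window was 82.3% G or C with 54 CpG dinucleotides and 6 GGGCGG matches, and the CACNA1D window was 83.0% G or C with 56 CpG dinucleotides and 5 such matches; the median over all promoter windows was 58.7%. The CACNB2 windows printed were 46.7% and 46.3% G or C, and each held the 1 match named beside it. The other 2 CACNB2 windows, at 72.3% and 50.3% G or C, held none of these motifs. These CACNB2 windows were picked after their matches were seen, and gene-level counts do not say which start was used. In GENCODE v44 on GRCh38, CACNA1C spans chr12:1970772-2697950 and CACNA1D spans chr3:53328963-53813733, both on the + strand, so each window lies inside the annotated gene. Of the 29 genes, 23 had an entry, with 36 windows in all. GGGCGG lay in 19 of the 36, against 45.0% of the 35116 windows of all genes; GATA hexamers lay in 4, against 25.0%, and TNAAGTG in 3, against 10.2%. The MEF2 consensus and the CArG box were found in 0 of the 36, against 2.99% and 1.29% of all windows. A match is a description of the letters in the window and not a measured binding site.

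Of the 29 genes, 19 reached a mean of at least 5 CPM on some day, and 28 passed the filter on low counts and were tested among 22245 genes; SCN10A did not pass. A gene was called at an adjusted p under 0.05 in edgeR's quasi-likelihood test with Benjamini-Hochberg adjustment over all genes tested. The day of the highest mean was day 0 for 9 of the 29 genes, day 1 for 2, day 3 for 3, day 5 for 2, day 10 for 3, day 14 for 4 and day 28 for 6, and day 7 for none. The 6 that peaked on day 28 were CACNA1C, CACNB2, CACNA2D1, SCN3B, SCN2B and SCN10A, and the 9 that peaked on day 0 were SCN1A, SCN2A, SCN4A, SCN8A, SCN9A, CACNA1A, CACNA1E, CACNB4 and CACNA2D3.

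**Figure D1:**
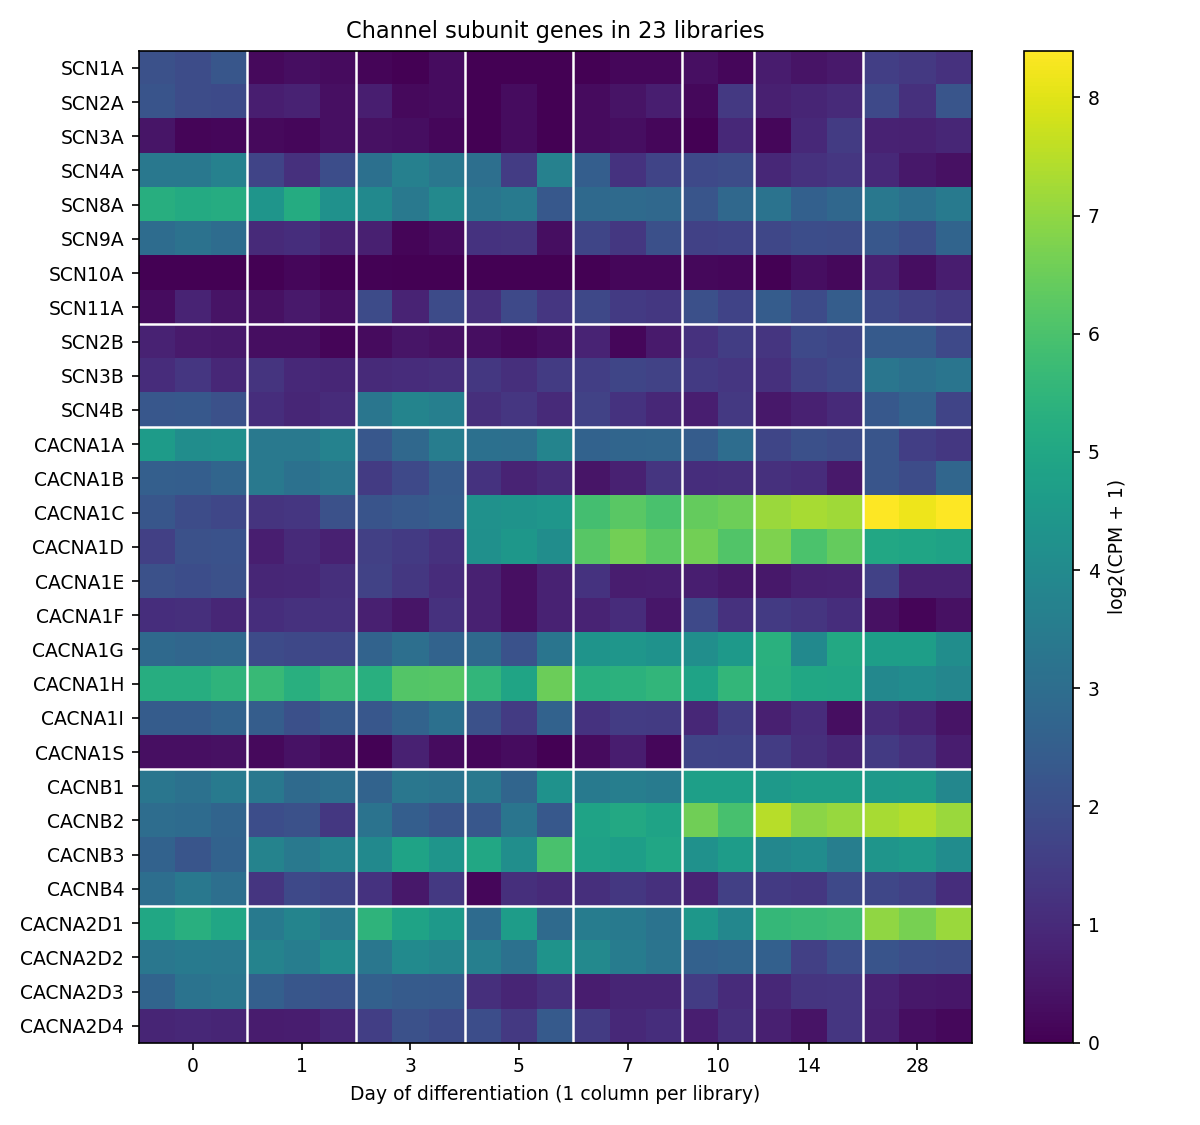
Level of each of the 29 genes (rows, grouped by family) in each of the 23 libraries (columns, grouped by day), as log2(CPM + 1) in colour. CACNA1C on day 28 holds the brightest cells (288 to 336 CPM), while SCN4A, SCN8A and CACNA1A have their highest means on day 0 (10.2, 35.4 and 18.9 CPM).

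Between day 28 and day 0, 25 of the 28 tested channel genes were called, 12 higher and 13 lower on day 28, against 60.5% of all genes tested (32.1% higher and 28.4% lower). The median log2 change was -0.28 over the channel genes and 0.09 over all genes tested. By family, CACNB genes were called higher in 3 of 4 cases and lower in 1, CACNA2D genes higher in 1 of 4 and lower in 3, and CACNA1 genes higher in 4 of 10 and lower in 5. Among sodium channel genes, 2 of the 7 tested pore genes were called higher and 4 lower, and 2 of the 3 beta genes were called higher and none lower. SCN2A, SCN4B and CACNA1B did not pass this test. In bulk samples, fewer cells of a type and less RNA per cell cannot be told apart, here and in each result that follows.

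**Figure D2:**
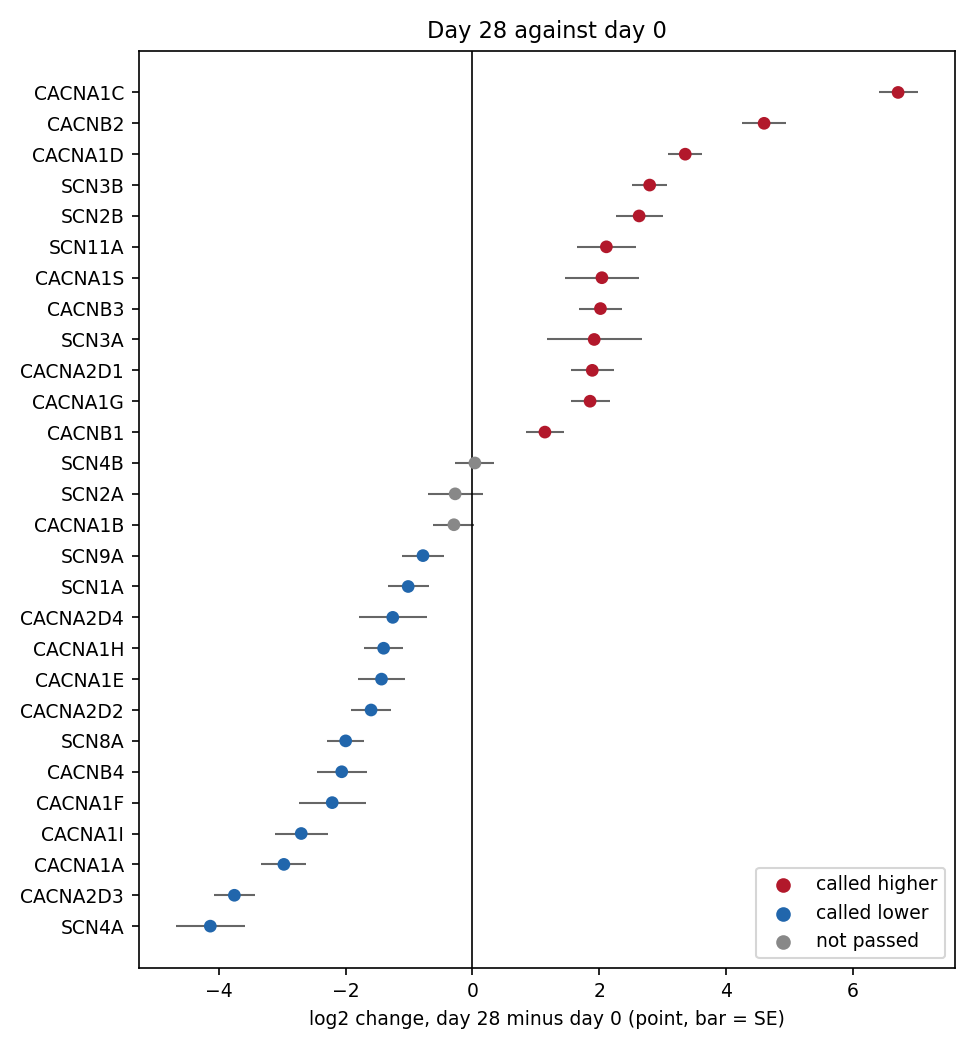
Change of each of the 28 tested channel genes between day 28 and day 0, as the fitted log2 change (points) with its standard error (bars), coloured by call. CACNA1C lies farthest to the right at 6.72 and SCN4A farthest to the left at -4.13.

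CACNA1C, which encodes the main L-type pore subunit of ventricular muscle, rose in 4 separate steps. In the 3 libraries of each day it had 3.77, 2.87 and 2.42 CPM on day 0, 1.39, 1.51 and 3.28 on day 1, 3.502, 4.04 and 4.61 on day 3, and 18.0, 18.9 and 20.3 on day 5. It then had 57.8, 75.0 and 62.6 CPM on day 7, 83.2 and 92.8 on day 10, 138, 156 and 146 on day 14, and 336, 288 and 332 on day 28. From day 3 onwards, each day's libraries lay above all libraries of the day before. The rise between day 5 and day 3 was 2.24 on the log2 scale (SE 0.27, adjusted p = 6.23e-07), that between day 7 and day 5 was 1.78 (SE 0.25, adjusted p = 2.02e-05), and that between day 28 and day 14 was 1.12 (SE 0.24, adjusted p = 0.00159). The step between day 3 and day 1 was also called, at 0.99 (adjusted p = 0.00727). The differences between day 10 and day 7 (0.43, adjusted p = 0.332) and between day 14 and day 10 (0.74, adjusted p = 0.132) did not pass the test, although the libraries did not overlap. Over the whole course CACNA1C was 105-fold higher on day 28 than on day 0 (log2 change 6.72, SE 0.31, adjusted p = 2.46e-15).

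CACNA1D, the L-type pore gene known from the sinoatrial node and the atria, started to rise at the same time but reached a plateau and then fell. Its libraries had 2.02, 3.25 and 3.34 CPM on day 0, 0.618, 1.02 and 0.691 on day 1, 1.995, 1.71 and 1.30 on day 3, and 17.5, 20.9 and 16.4 on day 5. They had 73.2, 96.1 and 76.1 CPM on day 7, 96.1 and 68.1 on day 10, 109, 63.2 and 83.5 on day 14, and 31.9, 29.4 and 27.4 on day 28. The libraries of days 7, 10 and 14 overlapped, and all of them lay above those of day 28, which in turn lay above those of day 5. The gene fell by 1.83 between day 1 and day 0 (SE 0.32, adjusted p = 0.00011) and rose by 3.42 between day 5 and day 3 (SE 0.29, adjusted p = 2.09e-09), the largest called rise between neighbouring days among the channel genes, together with that of SCN4B on day 3. It rose by a further 2.16 between day 7 and day 5 (SE 0.25, adjusted p = 1.45e-06) and fell by 1.53 between day 28 and day 14 (SE 0.24, adjusted p = 5.98e-05). A smaller rise between day 3 and day 1, of 1.08 (adjusted p = 0.0123), was lost without day 3 replicate 1 (adjusted p = 0.062). Exons of CACNA1D share 1399 bases with CHDH on the opposite strand, and since the strand setting of the counting is not given in the sources used here, reads of the pair may not be fully separated.

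The ratio of CACNA1C to CACNA1D was compared per length of exon, since the genes differ in size. The mean log2 ratio was -0.74 ± 0.04 on day 7, 0.41 ± 0.48 on day 14 and 3.02 ± 0.16 on day 28 (SD, n = 3 each). All 3 day 28 ratios, from 2.88 to 3.19, lay above the highest day 14 ratio of 0.89. In an exact two-sided permutation test the difference between day 28 and day 14 had p = 0.1, the smallest that 3 libraries against 3 can give, and 0.109 after Benjamini-Hochberg adjustment over the 12 ratio tests made.

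Marker lists of other cell types also differed between day 28 and day 14, the step in which CACNA1C rose and CACNA1D fell. The summed level of the 5 fibroblast markers was 2559 to 2972 CPM on day 28 against 306 to 566 CPM on day 14, with 5 of 5 over 1 CPM on both days. That of the 4 smooth muscle markers was 2237 to 2769 CPM on day 28 against 241 to 441 CPM on day 14, with 4 of 4 over 1 CPM on both days and no marker of either list at 0. Other lists were lower on day 28. The 5 endothelial markers summed to 43.2 to 54.9 CPM on day 28 against 121 to 194 CPM on day 14. KDR carried that fall, at 33.93 CPM on day 28 against 139.7 CPM on day 14. In the stem cells of day 0, KDR averaged 353.9 CPM. TEK went the other way, at 10.98 CPM on day 28 against 3.817 CPM on day 14. PECAM1 and CDH5 were lower on day 28, and VWF was under 1 CPM on both days. The 5 endoderm markers summed to 108 to 244 CPM on day 28 against 462 to 2938 CPM on day 14. The 5 skeletal muscle markers summed to 149 to 228 CPM on day 28 against 430 to 490 CPM on day 14. Nearly all of it was CKM, which heart muscle also expresses. The cardiomyocyte sum was 28820 to 41770 CPM on day 28 against 21430 to 22650 CPM on day 14. Within it, MYH7 averaged 17880 CPM on day 28 against 1373 CPM on day 14. MYH6 went the other way, at 1864 CPM on day 28 against 9680 CPM on day 14. The means of TNNT2, TNNI3, MYL7, ACTN2 and TTN were higher on day 28. The part of these markers' cells in the channel results was not tested.

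The T-type pore genes CACNA1G and CACNA1H, both known from embryonic heart, moved in opposite directions. CACNA1H averaged 38.5, 45.9, 59.7, 55.0, 41.4, 37.4, 33.4 and 14.6 CPM over the 8 days in time order. Its libraries had 14.2, 16.0 and 13.5 CPM on day 28, against 38.7, 31.1 and 30.4 CPM on day 14 and 36.6, 36.2 and 42.6 CPM on day 0. Day 28 lay below both; the gene fell by 1.2 against day 14 (SE 0.31, adjusted p = 0.00827) and by 1.4 against day 0 (SE 0.31, adjusted p = 0.000374); the day 14 call was lost without day 14 replicate 1 (adjusted p = 0.0512). No step between neighbouring days before day 14 was called for this gene. On day 5 its libraries were far apart, at 45.5, 29.2 and 90.3 CPM.

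CACNA1G averaged 6.07, 2.58, 5.99, 6.09, 19.4, 19.4, 28.9 and 22.0 CPM over the same days. The libraries had 19.4, 20.3 and 18.4 CPM on day 7, against 6.24, 3.34 and 8.68 CPM on day 5, so the days did not overlap, and the rise was 1.74 (SE 0.33, adjusted p = 0.000683). Later values overlapped with day 7, and day 14 alone ranged from 15.0 to 38.8 CPM. Earlier, CACNA1G fell by 1.23 between day 1 and day 0 (adjusted p = 0.00629) and rose by 1.21 between day 3 and day 1 (adjusted p = 0.00534). Day 28 stood 3.62-fold above day 0 (log2 change 1.86, SE 0.31, adjusted p = 1.11e-05). The log2 ratio of CACNA1G to CACNA1H per length was -2.88 ± 0.12 on day 0, -0.54 ± 0.64 on day 14 and 0.35 ± 0.29 on day 28 (SD, n = 3 each), with exact permutation p = 0.1 for day 28 against each. CACNA1I, the third T-type gene and mainly a brain gene, averaged 4.73, 3.93, 5.62, 3.40, 1.64, 1.39, 0.666 and 0.721 CPM over the 8 days. It fell by 2.7 between day 28 and day 0 (SE 0.42, adjusted p = 3.8e-06), with no call between neighbouring days.

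**Figure D3:**
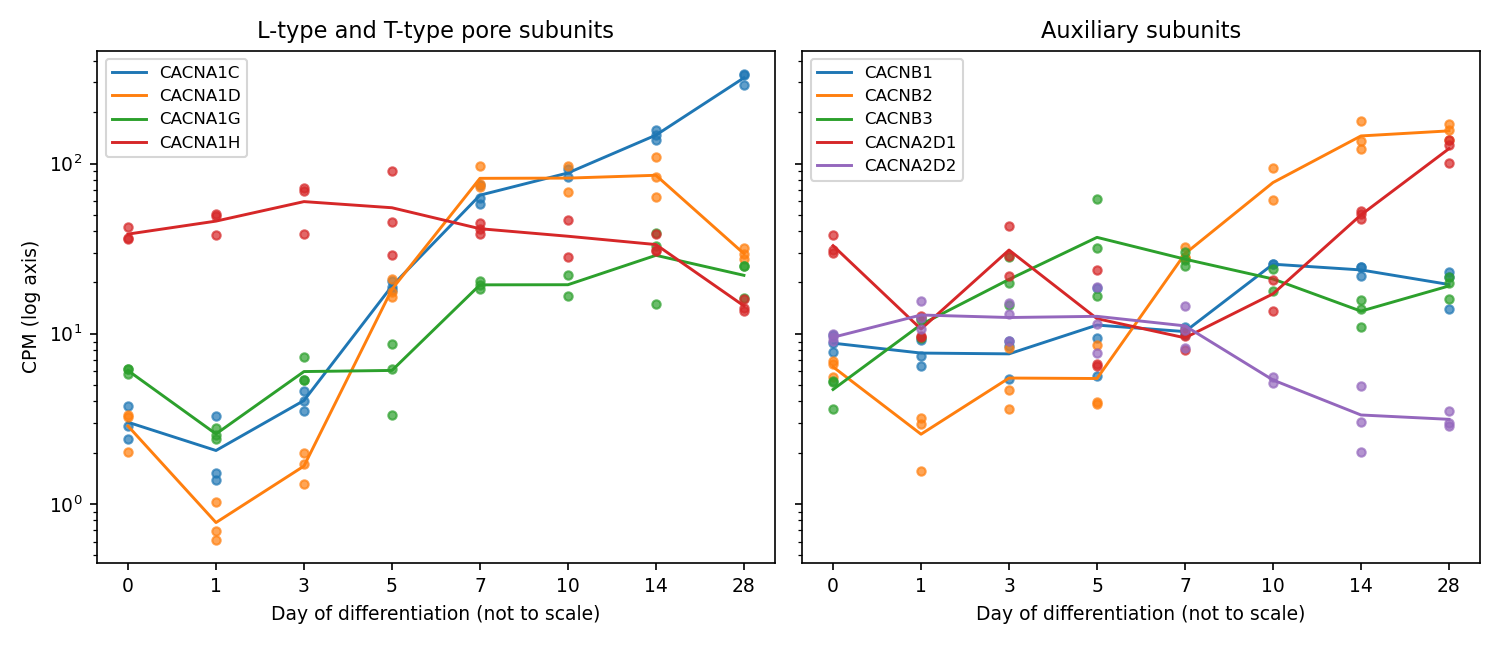
Level in CPM (log axis) of 4 pore genes (left) and 5 auxiliary subunit genes (right) by day, with 1 point per library and lines through the day means. CACNA1C, CACNB2 and CACNA2D1 are highest on day 28, while CACNA1D falls to 29.6 CPM on day 28, against 85.3 CPM on day 14.

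Among the nerve-type pore genes, CACNA1A (P/Q-type) averaged 18.9, 10.5, 6.93, 9.28, 5.61, 5.67, 2.78 and 2.40 CPM over the 8 days. Its libraries had 3.68, 1.93 and 1.58 CPM on day 28, against 23.2, 16.5 and 17.1 CPM on day 0, without overlap, and the gene fell by 2.97 (SE 0.35, adjusted p = 7.18e-08). The only called step between neighbouring days was that between day 1 and day 0 (fell by 0.86, adjusted p = 0.0406), and it was lost without any 1 of the 6 libraries of those days (adjusted p of up to 0.155) and with upper-quartile factors (0.0746). CACNA1B (N-type) averaged 5.09, 8.81, 2.89, 1.03, 0.854, 1.17, 0.937 and 4.15 CPM. It fell by 1.65 between day 3 and day 1 (SE 0.33, adjusted p = 0.000407), and by 1.48 between day 5 and day 3 (adjusted p = 0.0147; 0.0861 and 0.0922 without day 3 replicate 3 and in a fit of those days' libraries alone). It then rose by 2.12 between day 28 and day 14 (SE 0.41, adjusted p = 0.000514). Its libraries had 3.68, 2.85 and 5.90 CPM on day 28, against 1.24, 1.07 and 0.503 CPM on day 14, and against 4.86, 4.70 and 5.70 CPM on day 0, which day 28 overlapped.

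The summed level of the 10 neural markers was 29.7 to 32.1 CPM on day 28 against 13.2 to 15.0 CPM on day 14. On day 0 it was 26.7 to 30.3 CPM. Of the 10, 3 were over 1 CPM on day 28 and 3 on day 14, where ELAVL3 and SOX1 were at 0. SNAP25 averaged 12.7 CPM on day 28 against 6.69 CPM on day 14, and STMN2 averaged 13.2 CPM on day 28 against 0.516 CPM on day 14. These 2 carried the sum. The rest of the list went both ways. TUBB3 was at 0.992 CPM on day 28 against 0.465 CPM on day 14. ELAVL3, NEUROD1 and SOX1 were also higher on day 28, each under 1 CPM. DCX, PAX6, SYP and ELAVL4 were lower on day 28. DCX was at 0.321 CPM on day 28 against 2.18 CPM on day 14, PAX6 at 2.32 CPM on day 28 against 2.90 CPM on day 14, and SYP at 0.737 CPM on day 28 against 0.906 CPM on day 14. The part of such cells in the result was not tested.

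CACNB genes changed places over the course. CACNB2 averaged 6.39, 2.57, 5.49, 5.46, 29.5, 77.3, 145 and 156 CPM over the 8 days. Its libraries had 28.0, 32.2 and 28.4 CPM on day 7, against 3.84, 8.56 and 3.97 CPM on day 5, with no overlap, and the rise was 2.37 (SE 0.33, adjusted p = 1.62e-05). On day 10 they had 93.8 and 60.8 CPM, all above day 7, and the rise was 1.39 (SE 0.33, adjusted p = 0.0101). That step was lost without day 7 replicate 1, day 7 replicate 3 or day 10 replicate 1 (adjusted p of 0.0505 to 0.28). Day 14 (178, 121 and 136 CPM) and day 28 (157, 171 and 138 CPM) overlapped. Earlier, it fell by 1.29 between day 1 and day 0 (adjusted p = 0.00508) and rose by 1.10 between day 3 and day 1 (adjusted p = 0.0116), which was lost without day 1 replicate 3 or day 3 replicate 1 (adjusted p of 0.0515 and 0.123). Day 28 was 24.3-fold above day 0 (log2 change 4.60, SE 0.34, adjusted p = 2.03e-11).

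CACNB3 averaged 4.70, 11.3, 20.8, 36.8, 27.4, 21.0, 13.6 and 19.1 CPM, and was the only channel gene called higher between day 1 and day 0. Its libraries had 12.4, 9.45 and 12.1 CPM on day 1, against 5.19, 3.62 and 5.30 CPM on day 0, a rise of 1.26 without overlap (SE 0.34, adjusted p = 0.00672). The rise between day 3 and day 1 was 0.88 (adjusted p = 0.0364), and it was lost without day 1 replicate 2 or day 3 replicate 2 (adjusted p of 0.0764 and 0.121). On day 5 its libraries were spread over 31.9, 16.6 and 62.0 CPM. CACNB1, the beta subunit of the skeletal muscle channel, averaged 8.80, 7.70, 7.61, 11.2, 10.3, 25.6, 23.7 and 19.5 CPM. It had 25.7 and 25.6 CPM on day 10, against 9.79, 10.9 and 10.2 CPM on day 7, without overlap. That rise of 1.31 (SE 0.33, adjusted p = 0.0152) was lost without any 1 of the 5 libraries of those days (adjusted p of 0.0539 to 0.11), while the rise of 1.15 between day 28 and day 0 was called at an adjusted p of 0.00177. CACNB4, mainly a brain subunit, averaged 7.89, 2.14, 1.13, 0.765, 1.33, 1.39, 1.96 and 1.89 CPM; it fell by 1.86 between day 1 and day 0 (adjusted p = 0.000766) and was not called in a later step between neighbouring days.

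Of the alpha-2-delta genes, CACNA2D1, the form that predominates in heart and skeletal muscle, had a course with several turns. Its libraries had 30.9, 37.9 and 29.95 CPM on day 0, 9.65, 12.7 and 9.58 on day 1, 42.7, 28.4 and 22.0 on day 3, and 6.60, 23.7 and 6.45 on day 5. They had 10.6, 9.73 and 8.08 CPM on day 7, 20.6 and 13.7 on day 10, 46.9, 50.2 and 52.6 on day 14, and 128, 101 and 138 on day 28. Day 5 replicate 2 stood apart from the other libraries of its day and within the range of day 3. CACNA2D1 fell by 1.62 between day 1 and day 0 (adjusted p = 0.00112), rose by 1.54 between day 3 and day 1 (adjusted p = 0.0011) and rose by 1.29 between day 28 and day 14 (SE 0.34, adjusted p = 0.00893). It also fell by 1.29 between day 5 and day 3 (adjusted p = 0.0101), where the days overlapped; this call was lost without day 3 replicate 1 or day 5 replicate 1, without the 2 shallowest libraries, and in a fit of those days alone (adjusted p of 0.059 to 0.187). The rise of 1.54 between day 14 and day 10 (SE 0.40, adjusted p = 0.0303) was lost without any 1 of those days' 5 libraries (adjusted p of 0.0588 to 0.383).

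CACNA2D2 averaged 9.53, 12.9, 12.4, 12.7, 11.1, 5.35, 3.33 and 3.14 CPM over the 8 days. It was called in no step between neighbouring days, but fell by 1.60 between day 28 and day 0 (SE 0.32, adjusted p = 0.000125), with 3.54, 3.01 and 2.88 CPM on day 28 against 9.01, 10.0 and 9.56 CPM on day 0. CACNA2D3 averaged 7.47, 3.997, 4.52, 1.09, 0.752, 1.43, 1.28 and 0.544 CPM. It had 1.2, 0.835 and 1.24 CPM on day 5, against 5.01, 4.35 and 4.21 CPM on day 3, without overlap, and fell by 2.12 (SE 0.33, adjusted p = 2.64e-05). Between day 28 and day 0 it fell by 3.75 (SE 0.32, adjusted p = 2.63e-10), the second largest fall among the channel genes. It also fell by 0.90 between day 1 and day 0 (adjusted p = 0.0104) and fell by 1.21 between day 28 and day 14 (adjusted p = 0.0317). Both calls were lost under some alternatives: the first without day 0 replicate 2 or 3 or day 1 replicate 3 (adjusted p of up to 0.0613), the second without day 14 or day 28 replicate 2 or 3 (up to 0.141), with every gene of at least 1 count tested (0.197) and in DESeq2 (0.0612).

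To compare subunits of a family, CPM were divided by the length of each gene's exon union, and each library's values were expressed as shares of the family. Among the 10 CACNA1 genes, CACNA1H held the largest mean share on day 0 (63.2% ± 1.82), day 1 (71.3% ± 1.55), day 3 (76.7% ± 2.81) and day 5 (64.9% ± 9.40; SD, n = 3 each). On day 7 it held 34.2% and CACNA1D 30.1%, and on day 10 CACNA1D held 28.9%, CACNA1H 28.7% and CACNA1C 22.99%; on both days the leading genes' libraries overlapped. CACNA1C led on day 14 at 33.4% ± 6.77, overlapping with CACNA1D at 25.0%, and on day 28 at 66.7% ± 3.56, with no overlap with CACNA1G at 11.7%. CACNA1H and CACNA1D held 9.09% and 8.24% on day 28.

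In the CACNB family CACNB1 led on day 0 with 46.1% ± 2.56, CACNB3 on days 1, 3, 5 and 7 with 53.5%, 63.7%, 68.7% and 48.2%, and CACNB2 on days 10, 14 and 28 with 50.6%, 70.6% and 71.9%. No leader's libraries overlapped with those of the next gene. In the CACNA2D family CACNA2D1 led on days 0, 3, 10, 14 and 28 with 53.2%, 50.3%, 59.4%, 85.9% and 95.3%, and CACNA2D2 on days 1, 5 and 7 with 48.3%, 50.0% and 55.0%; on day 5 the pair overlapped. Over the 24 combinations of family and day, the same gene led in 23 with the longest transcript as length and in 21 with no length scaling. CACNA1D led CACNA1 on day 7 under both; with no length scaling CACNA1C led on day 10 and CACNB2 led CACNB on day 7.

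**Figure D4:**
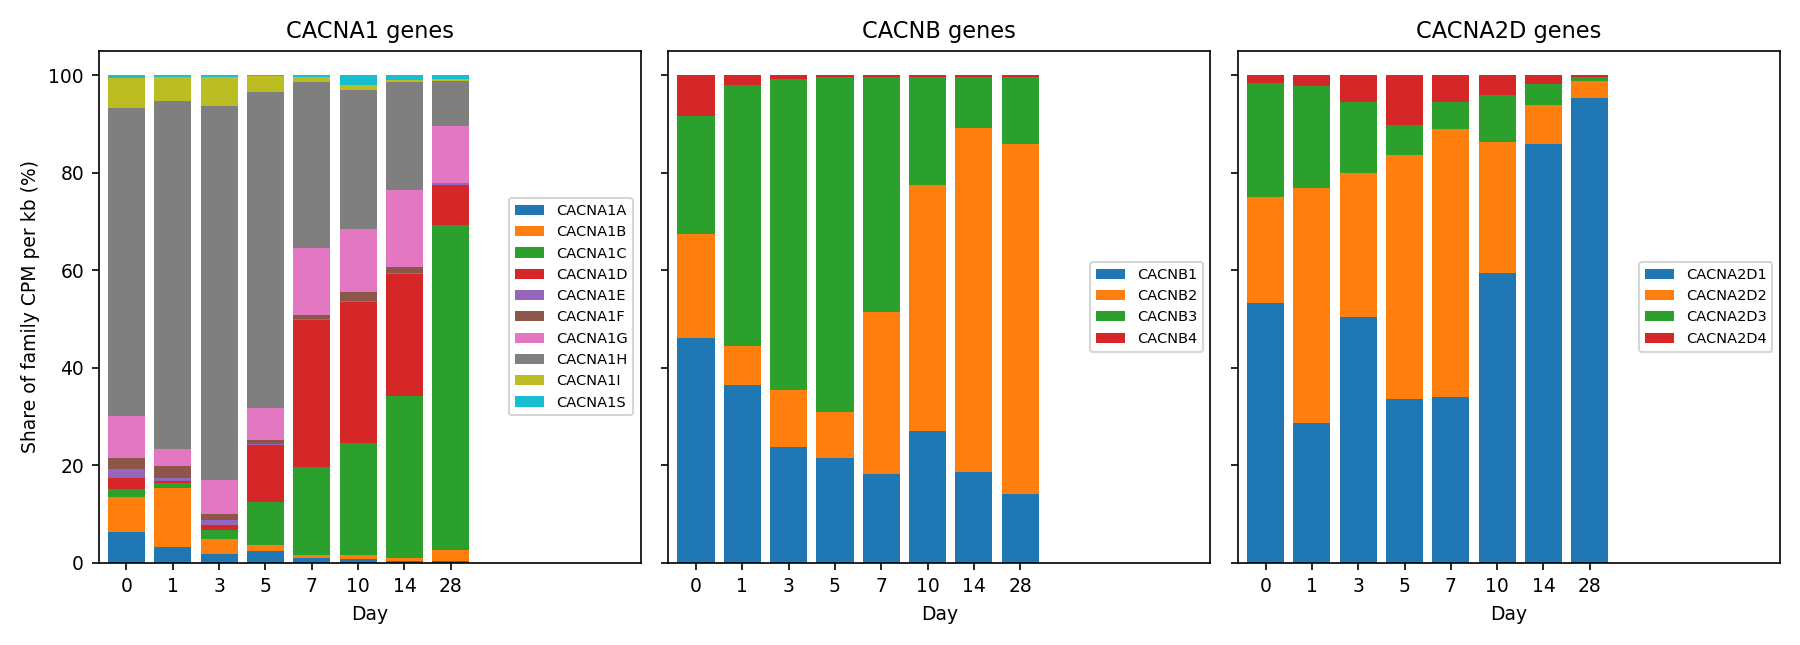
Mean share of each gene in its family's summed CPM per kilobase of exon (percent, bars) by day, for the CACNA1, CACNB and CACNA2D families. CACNA1C, CACNB2 and CACNA2D1 make up 66.7%, 71.9% and 95.3% of their families on day 28, while CACNA1H, CACNB1 and CACNA2D1 lead on day 0.

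SCN8A, a pore gene best known from neurons, was the most abundant of the listed sodium channel genes on day 0. It averaged 35.4, 24.1, 12.9, 7.41, 6.32, 4.87, 6.38 and 8.85 CPM over the 8 days. Its libraries had 9.29, 7.64 and 9.64 CPM on day 28, against 37.2, 33.7 and 35.4 CPM on day 0, without overlap, and the gene fell by 2.00 (SE 0.30, adjusted p = 2.31e-06). The step between day 3 and day 1 (fell by 0.90, adjusted p = 0.016) was lost without day 1 replicate 2 or day 3 replicate 2 (adjusted p of up to 0.22), with library totals alone (0.0858) and in a fit of those days alone (0.063), and no other neighbouring step was called.

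SCN4A, the pore gene of skeletal muscle, averaged 10.2, 2.16, 9.34, 7.01, 2.77, 2.7, 1.24 and 0.570 CPM. Its libraries had 9.28, 9.32 and 11.9 CPM on day 0, 2.32, 1.22 and 2.93 CPM on day 1, and 7.49, 11.5 and 9.03 CPM on day 3. Day 1 lay below both neighbours without overlap: the gene fell by 2.27 between day 1 and day 0 (SE 0.46, adjusted p = 0.000683) and rose by 2.14 between day 3 and day 1 (SE 0.46, adjusted p = 0.000755). Day 5 was spread over 7.32, 1.81 and 11.9 CPM. The libraries of day 28 had 0.958, 0.463 and 0.288 CPM, 17.6-fold below day 0 (log2 change -4.13, SE 0.54, adjusted p = 3.6e-07), the largest fall among the channel genes. The 5 skeletal muscle markers summed to 0.288 to 0.492 CPM on day 0, 5.70 to 7.34 CPM on day 1 and 3.72 to 7.22 CPM on day 3. MYF6 carried the sum on day 1, at 6.004 CPM, and CKM that on day 3, at 4.379 CPM. MYOD1, MYOG and MYF5 were each under 1 CPM on days 0, 1 and 3. The part of skeletal muscle cells in the SCN4A level was not tested.

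SCN9A, a pore gene of peripheral sensory neurons, averaged 7.14, 0.967, 0.314, 0.986, 2.34, 2.15, 2.78 and 4.15 CPM. It had 1.00, 1.12 and 0.777 CPM on day 1, against 6.77, 7.90 and 6.74 CPM on day 0, without overlap, and the gene fell by 2.85 (SE 0.38, adjusted p = 3.56e-06). The later steps were less firm: it fell by 1.38 between day 3 and day 1 (adjusted p = 0.0297), a call lost without any day 1 library or day 3 replicate 2 or 3 (adjusted p of up to 0.17) and with library totals alone (0.072). It rose by 1.58 between day 5 and day 3 (adjusted p = 0.0349), a call lost without day 3 replicate 2 or 3 or day 5 replicate 1 or 2 (up to 0.157) and with every gene of at least 1 count tested (0.0636). Between day 28 and day 0 it fell by 0.78 (adjusted p = 0.0444), a call that was lost without any of the day 0 libraries or day 28 replicate 1 or 2 (adjusted p of up to 0.243), with relative log expression (RLE) size factors and with the replicate number as a block. The libraries, at 3.91, 3.01 and 5.54 CPM on day 28 against 6.77, 7.90 and 6.74 CPM on day 0, did not overlap.

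SCN9A lies with SCN1A, SCN2A and SCN3A in a cluster of related pore genes on chromosome 2 (GRCh38, GENCODE v44, from 165087526 to 166376001). How reads shared by such close relatives were counted was not examined, and the levels of these genes may be affected. SCN1A and SCN2A, brain pore genes, fell with SCN9A between day 1 and day 0. SCN1A had 0.154, 0.244 and 0.173 CPM on day 1, against 3.22, 2.82 and 3.74 CPM on day 0 (fell by 3.97, SE 0.43, adjusted p = 2.32e-07). On day 5 it had 0 counts in all 3 libraries, which allows a level of up to 0.115 CPM over the pooled day (3 counts, counting error only), and on day 28 it had 1.92, 1.62 and 1.30 CPM, a rise of 1.74 against day 14 (0.563, 0.357 and 0.503 CPM; SE 0.44, adjusted p = 0.00734). SCN2A fell by 2.41 between day 1 and day 0 (adjusted p = 0.000934). Its rise of 1.57 between day 28 and day 14 (adjusted p = 0.0467) was lost without day 14 replicate 1, 2 or 3 or day 28 replicate 1 or 3 (adjusted p of 0.0823 to 0.219). It was also lost with upper-quartile factors (0.0679), with library totals alone (0.0934), with a minimum count of 30 (0.0511) and with the replicate number as a block (0.0625). SCN3A was at or under 1.76 CPM in each library, and its rise of 1.92 between day 28 and day 0 (adjusted p = 0.0257) was lost without day 0 replicate 2 or 3 or day 28 replicate 3 (adjusted p of 0.0548 to 0.0927).

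The beta genes SCN4B, SCN2B and SCN3B, all on chromosome 11, were low but well separated between some days. SCN4B, whose product is linked to the pore by a disulfide bond, had a single high day in the early course. Its libraries had 1.16, 0.877 and 1.04 CPM on day 1, 8.87, 12.7 and 11.3 CPM on day 3, and 1.2, 1.53 and 0.992 CPM on day 5. Day 3 lay above both neighbours without overlap: the gene rose by 3.42 between day 3 and day 1 (SE 0.35, adjusted p = 2.26e-08) and fell by 3.06 between day 5 and day 3 (SE 0.36, adjusted p = 4.94e-07). It rose again by 2.39 between day 28 and day 14 (SE 0.40, adjusted p = 0.000101), with 3.98, 5.17 and 2.30 CPM on day 28 against 0.450, 0.714 and 1.01 CPM on day 14. Over all 8 days it averaged 3.70, 1.02, 10.98, 1.24, 1.47, 1.15, 0.723 and 3.82 CPM, and its log2 change between day 28 and day 0 was 0.04 (adjusted p = 0.917).

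Day 3 was also the highest day of the summed neural markers, at 56.2 to 105 CPM against 19.3 to 21.5 CPM on day 1. STMN2 alone averaged 73.6 CPM on day 3 against 1.31 CPM on day 1 and carried that sum. Other markers went both ways. PAX6 was at 2.18 CPM on day 3 against 0.751 CPM on day 1, and ELAVL4 at 0.780 CPM against 0.161 CPM. TUBB3, SYP, DCX, SNAP25, ELAVL3 and NEUROD1 were lower on day 3, and SOX1 was under 1 CPM on both days. TUBB3 was at 1.97 CPM on day 3 against 6.92 CPM on day 1, SYP at 2.93 CPM on day 3 against 7.99 CPM on day 1, and DCX at 1.21 CPM on day 3 against 2.13 CPM on day 1. On day 3, 5 of the 10 markers were over 1 CPM, and NEUROD1 was at 0. The part of such cells in the SCN4B level was not tested.

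SCN3B averaged 1.17, 1.08, 1.10, 1.49, 2.18, 1.60, 1.97 and 8.27 CPM, and the only called step between neighbouring days was the last. Its libraries had 8.84, 7.48 and 8.49 CPM on day 28, against 1.24, 2.14 and 2.51 CPM on day 14, without overlap, a rise of 2.08 (SE 0.28, adjusted p = 6.39e-06). SCN2B had 4.20, 4.16 and 2.59 CPM on day 28, against 0.765, 0.518 and 0.461 CPM on day 0, without overlap, a rise of 2.63 (SE 0.37, adjusted p = 9.17e-07). It fell by 1.51 between day 1 and day 0 (adjusted p = 0.029) and rose by 1.84 between day 10 and day 7 (adjusted p = 0.0374), and both were lost under several alternatives (adjusted p of up to 0.121 and 0.229), including without day 0 replicate 1 or 2 or day 1 replicate 1 or 3 for the first, and without day 7 replicate 2 or 3 or either day 10 library for the second.

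**Figure D5:**
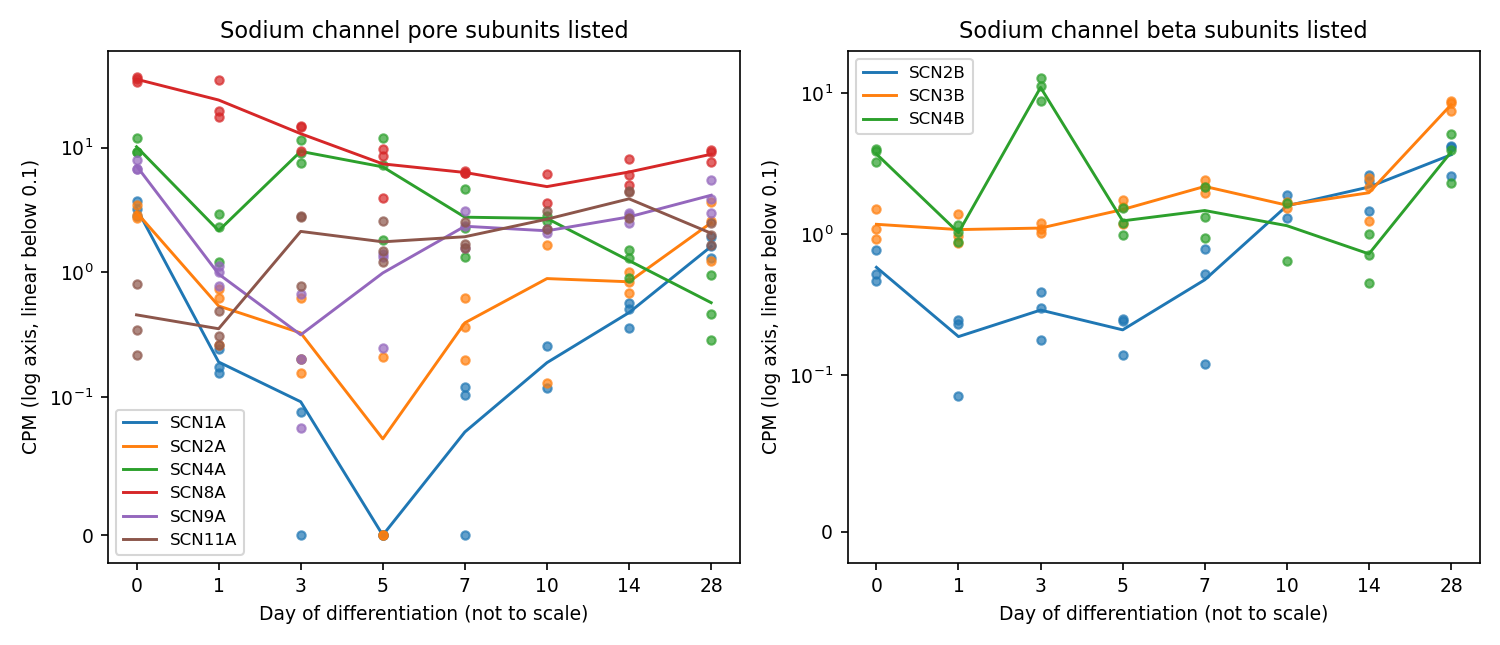
Level in CPM (log axis, linear below 0.1) of 6 pore genes (left) and 3 beta genes (right) of the listed sodium channel genes by day, with 1 point per library and lines through the day means. SCN8A has its highest mean on day 0 (35.4 CPM), SCN4B has its highest mean on day 3 (10.98 CPM), and SCN3B on day 28 (8.27 CPM).

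Per kilobase of exon, the listed pore genes on day 28 ran from SCN8A (0.466 ± 0.06 CPM per kb) through SCN9A (0.298 ± 0.09) and SCN11A (0.164 ± 0.03), with no overlap between these 3, to SCN2A, SCN1A, SCN10A, SCN4A and SCN3A (0.104 down to 0.0661; SD, n = 3 each), and from SCN11A down each gene overlapped with the next. SCN8A also led on days 0, 1 and 14, where on day 14 it overlapped with SCN11A. SCN4A led per kilobase on days 3, 5, 7 and 10, and on the last 3 of these days it overlapped with SCN8A. That lead depended on the length scaling. With none, SCN8A had the higher mean on each of these days (12.95, 7.41, 6.32 and 4.87 CPM, SCN4A 9.34, 7.01, 2.77 and 2.7 CPM). The libraries of the pair then overlapped on days 3 and 5, but not on days 7 and 10. The exon union of SCN8A is 19016 bases against 11559 in its longest transcript, and that of SCN4A 8243 against 7805. Of the 3 beta genes SCN4B led per kilobase on days 0 to 7, with 1.94 ± 0.35 CPM per kb on day 3 and overlap with SCN3B on day 7. SCN2B led on days 10 and 14, overlapping with SCN4B on day 10. On day 28 SCN3B (0.826), SCN2B (0.682) and SCN4B (0.676) overlapped. With no length scaling SCN4B still led on days 0 and 3, and SCN2B on day 14. SCN3B then had the higher mean on days 1, 5 and 7 (1.08, 1.49 and 2.18 CPM, SCN4B 1.02, 1.24 and 1.47 CPM). It was also just above SCN2B on day 10 (1.60 and 1.59 CPM). On day 28 SCN3B, at 7.48 to 8.84 CPM, did not overlap with SCN4B (2.30 to 5.17 CPM) or SCN2B (2.59 to 4.20 CPM).

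The 10 genes under 5 CPM on every day were SCN1A, SCN2A, SCN3A, SCN10A, SCN11A, SCN2B, CACNA1E, CACNA1F, CACNA1S and CACNA2D4. SCN11A, a sensory neuron pore gene, rose by 2.50 between day 3 and day 1 (SE 0.50, adjusted p = 0.000312) and had its highest mean on day 14, at 3.88 CPM; it shares 61 exon bases with WDR48 on the opposite strand. CACNA1S, the L-type pore of skeletal muscle, had 2.32 and 2.24 CPM on day 10, against 0.196, 0.601 and 0.104 CPM on day 7, without overlap. That rise of 2.87 (adjusted p = 0.0125) was lost without day 7 replicate 3 or either day 10 library (adjusted p of 0.0582 to 0.108), while its level on day 28 was 4.13-fold that on day 0 (adjusted p = 0.00311). CACNA1F, the retinal L-type pore, fell by 2.62 between day 28 and day 14 (0.295, 0.0771 and 0.288 CPM against 1.69, 1.43 and 1.13 CPM; SE 0.55, adjusted p = 0.000977). CACNA1E, the R-type pore, fell by 1.67 between day 1 and day 0 (adjusted p = 0.0017), and CACNA2D4 rose by 2.00 between day 3 and day 1 (adjusted p = 0.000826). SCN10A had 0 counts on days 0 and 5 and its highest mean on day 28, at 0.490 CPM.

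The number of channel genes called per step followed the course unevenly. Between day 1 and day 0, 1 was called higher and 14 lower of the 28 tested (53.6% in all), against 31.8% of all genes tested, of which 15.3% were higher and 16.5% lower; the median log2 change was -0.72 over the channel genes and 0.05 over all genes. Between day 3 and day 1, 10 were higher and 3 lower, against 37.2% of all genes (18.2% higher and 19.0% lower). Between day 5 and day 3, 3 were higher and 5 lower, against 16.6% of all genes (10.3% higher and 6.33% lower). Between day 7 and day 5, 4 were higher (CACNB2, CACNA1D, CACNA1C and CACNA1G) and none lower, against 10.3% of all genes (5.32% higher and 5.02% lower).

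Of the steps between neighbouring days, that between day 14 and day 10 held the fewest calls, among the channel genes and among all genes tested. In the steps below, 14.3%, 3.57% and 39.3% of the channel genes tested were called, in time order. Between day 10 and day 7, 4 were higher (CACNB1, CACNB2, SCN2B and CACNA1S) and none lower, against 7.67% of all genes (4.17% higher and 3.50% lower); leaving out 1 library left 2 calls without day 7 replicate 1 or 2, 1 without day 10 replicate 2, and 0 without day 7 replicate 3 or day 10 replicate 1. Between day 14 and day 10, 1 was higher (CACNA2D1) and none lower, against 3.74% of all genes (1.64% higher and 2.11% lower), and 0 were called without any 1 of those 5 libraries. Between day 28 and day 14, 7 were higher (CACNA1C, CACNA2D1, CACNA1B, SCN3B, SCN4B, SCN1A and SCN2A) and 4 lower (CACNA1D, CACNA1H, CACNA1F and CACNA2D3), against 15.7% of all genes (7.96% higher and 7.78% lower).

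With the cardiomyocyte days (10, 14 and 28, each day weighted equally) set against the progenitor days (5 and 7), 14 of the 28 tested channel genes were called higher and 7 lower, against 57.6% of all genes tested (28.7% higher and 28.9% lower). The median log2 change was 0.67 over the channel genes and 0.01 over all genes. CACNB2 was 9.28-fold higher (log2 change 3.21, SE 0.23, adjusted p = 1.9e-11), CACNA1C 4.55-fold (2.19, SE 0.17, adjusted p = 1.19e-10) and CACNA2D1 4.3-fold (2.10, SE 0.25, adjusted p = 1.06e-07). CACNA2D2 fell by 1.60 (SE 0.22, adjusted p = 1.08e-06), SCN4A by 1.72 (adjusted p = 0.000278), CACNA1I by 1.36 (adjusted p = 0.000671) and CACNA1A by 1.08 (adjusted p = 0.000431). Of these, CACNB2, CACNA1C and CACNA2D2 had no overlap between the libraries of the 2 periods. CACNA1D was called higher by 0.61 (adjusted p = 0.0027) and CACNA1H lower by 0.85 (adjusted p = 0.000979), both with overlapping libraries.

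A further list held 45 genes, here called partner genes. Many encode other proteins that bind these channels or couple them to calcium release. The list also held NALCN, NALF1, NALF2, UNC79, UNC80 and CATSPER1 to CATSPER4, which belong to other channels. The partner genes were counted in the same fits, and 36 passed the filter. Between day 28 and day 0, 17 were called higher and 10 lower, which is 75.0% of them against 60.5% of all genes tested, with a median log2 change of 0.54. The largest called rises among those of at least 5 CPM were RRAD, a small GTPase that inhibits L-type current, at 50.5 CPM on day 28 against 0.0521 CPM on day 0 (few counts on day 0), JPH2, which ties the surface membrane to the calcium store, at 427 CPM on day 28 against 1.80 CPM on day 0 (log2 change 7.88, SE 0.50, adjusted p = 8.69e-13), and AHNAK, a large scaffold that binds the beta subunit, at 1669 CPM on day 28 against 14.9 CPM on day 0 (6.81, SE 0.55, adjusted p = 9.74e-11). The largest called falls were CACNG7, a gamma subunit of brain, at 0.269 CPM on day 28 against 16.2 CPM on day 0 (fell by 5.85, SE 0.58, adjusted p = 3.33e-09), JPH4, the neuronal junctophilin, at 0.719 CPM on day 28 against 37.1 CPM on day 0 (fell by 5.67, adjusted p = 1.87e-12), and NALF2 at 2.86 CPM on day 28 against 19.1 CPM on day 0 (fell by 2.73, adjusted p = 1.23e-06). Over the 7 neighbouring steps in time order, the partners called higher numbered 1, 4, 8, 6, 5, 1 and 7, and those called lower 11, 6, 6, 1, 2, 2 and 5. Their called shares were 33.3%, 27.8%, 38.9%, 19.4%, 19.4%, 8.33% and 33.3%, against 31.8%, 37.2%, 16.6%, 10.3%, 7.67%, 3.74% and 15.7% of all genes tested. Between cardiomyocyte and progenitor days 19 were called higher and 9 lower, which is 77.8% of them against 57.6% of all genes tested.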

How the data were processed

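Counts per gene were deposited by the authors as whole numbers, with no normalization; Trim Galore 0.65 cut reads to 50 bases, STAR 2.7.0 placed them on GRCh38, and HTSeq assigned them to GENCODE v38 genes, according to the submitters' processing notes. The kit was strand-specific per the labels, and the strand setting of the counting is not given in the sources used here. Of 57521 rows, 44 chromosome Y pseudoautosomal rows held 0 counts and were left out. Symbols, coordinates and exon lengths came from GENCODE v44 (56387 of 57477 IDs matched).

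One model of all 23 libraries, with day as a factor, was fitted with edgeR 4.0.16 (R 4.3.3; TMM factors, filterByExpr with a minimum count of 10, robust quasi-likelihood F test, Benjamini-Hochberg adjustment over 22245 genes, called under 0.05). No replicate block was used. CPM used TMM-scaled totals. A standard error is the absolute log2 change over the square root of F. Ratios were tested by exact permutation. Alternatives were RLE and upper-quartile factors, library totals alone, other count filters, fits of the days compared, a replicate block, single libraries left out, and DESeq2 1.42.0. In simulated counts for day 28 against day 14 (21534 genes), 27 of 100 genes changed by 2-fold were found. Of 100 changed by 4-fold, 93 were found, and 8 unchanged genes were called. In the deposited counts, 3501 of 22245 genes were called between these days. How many changes near 2-fold were missed there was not tested.

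The named genes are all 29 members; those with a mean of at least 5 CPM on a day are given with every day's level, and of the partner list the 3 largest called rises and falls. The members, the gene lists and the alternatives were chosen with earlier results of these data known.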

Additional observations from a re-analysis of the deposited data

How the results depend on the processing

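Over the 102 called changes of single channel genes, 0 of their 1615 values under the alternatives run reversed; 74 kept the call under every alternative run for them and 28 lost it under at least 1. The replicate numbers were not taken to pair the libraries: of 22 same-number pairs between compared days, 4 correlated above 0.1 (range -0.464 to 0.279), while between day 1 and day 5, which were not compared, the 3 pairs correlated at 0.171, 0.651 and 0.451. With a replicate block the calls numbered 16, 13, 8, 4, 3, 1 and 10 over the 7 neighbouring steps in time order, 24 for day 28 against day 0 and 21 for cardiomyocyte against progenitor days. In fits of only the libraries of the days compared, the calls numbered 4 for day 5 against day 3 and 3 for day 14 against day 10; DESeq2 gave 2 for the last. With single libraries left out they ranged over 12 to 16, 10 to 13, 6 to 9, 4 to 6, 0 to 2, 0 to 0 and 9 to 11 for the neighbouring steps, 21 to 24 for day 28 against day 0 and 18 to 22 for cardiomyocyte against progenitor days.

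The leading shares moved with the length used. With the longest transcript and with no length scaling, CACNA1H held 49.3% and 46.0% of CACNA1 on day 0, CACNA1C 72.9% and 80.7% on day 28, CACNB1 34.6% and 31.6% of CACNB on day 0, and CACNB2 74.8% and 79.5% on day 28. CACNA2D1 held 64.8% on day 0 and 96.8% on day 28 with no length scaling. With single libraries left out these shares ranged over 62.2% to 64.0%, 64.8% to 68.4%, 44.6% to 46.8%, 70.6% to 72.6%, 51.8% to 55.5% and 94.8% to 95.7%. The exon union and the longest transcript differ to unlike degrees between genes. The exon union of CACNA1A is 43150 bases against 8657 in its longest transcript, and that of CACNB4 35957 against 8595. That of CACNA1C is 25552 against 13888, and that of CACNA1H 8620 against 8219. The shallowest libraries, down to 4330334 counts, were on days 5 and 7; without the 2 shallowest, an alternative chosen after seeing the data, the calls numbered 8 for day 5 against day 3, 4 for day 7 against day 5 and 4 for day 10 against day 7.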
